A study of Mus musculus with 6 samples.

Results

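Genes of the unfolded protein response and of protein folding in the endoplasmic reticulum (ER) were examined in mouse CD4+CD25+ cell preparations. These came from mice with a genotype for deletion of Hdac3 and from wild type mice. The list held 35 genes picked by function out of 12393 genes measured. All 35 were found on the array. Each was read from its brightest probe set, by the mean of the 6 samples, among those annotated to that gene alone. They fall into 4 sensor genes (counting Xbp1), 5 genes of the ATF4 arm, 15 chaperones and folding enzymes, 6 degradation genes and 5 translocation genes. No member was lost to a filter on low values, and Atf3 in wild type was the 1 case of a group mean inside the background range.

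The tested samples were 3 preparations of CD4+CD25+ cells from C57BL6 mice with genotype HDAC3-fl/fl_FOXP3cre, that is, with floxed Hdac3 alleles and Cre under the name of Foxp3. They are called Hdac3 deleted after this genotype, although Hdac3 still measured above background in them. Foxp3 marks regulatory T cells, and CD4+CD25+ is a surface phenotype that enriches for such cells. The controls were 3 preparations of the same phenotype from wild type C57BL6 mice, not labelled as carrying Cre. Each sample had 1 Affymetrix Mouse430a array, and ages and pooling were not given in the sources used here. The labels do not state whether each sample is another animal, and p-values therefore rest on a sample-to-sample spread that may be technical only.

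The unfolded protein response adjusts the folding capacity of the ER to its load of secretory and membrane proteins. Its sensors sit in the ER membrane: ATF6 is cut to release a transcription factor, IRE1 (encoded by Ern1) splices Xbp1 mRNA, and PERK (encoded by Eif2ak3) slows translation and favours that of ATF4. The targets are chaperones, disulphide isomerases and the machinery that sends misfolded proteins out of the ER for degradation. Lymphocytes draw on this response when they enlarge their ER, most of all as plasma cells, and macrophages use it too.

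The 2 groups stood far apart on the arrays. Across probe sets, samples correlated at Pearson r of 0.997 to 0.998 among Hdac3 deleted, 0.996 to 0.997 among wild type and 0.921 to 0.923 between groups. Sample medians were 6.43 to 6.47 (log2) in Hdac3 deleted samples and 6.28 to 6.29 in wild type. Hdac3 measured 8.46, 8.51 and 8.50 (log2) in Hdac3 deleted samples, against 9.07, 9.04 and 9.01 in wild type, a difference of -0.55 (limma adjusted p = 7.45e-05). Where its probe set lies relative to the floxed exons was not analysed here, which limits this as a label check, and the source and description fields of these samples name HDAC11 and HDACII instead. Foxp3 averaged 3.68 in Hdac3 deleted samples and 3.77 in wild type, both within background, so it could not serve to check the regulatory T cell label. All 6 measured T cell markers were lower, with summed signals of 13.22 to 13.25 (log2) in Hdac3 deleted samples and 14.57 to 14.66 in wild type, and the 4 CD3 genes differed by -1.47 on average. All 15 measured monocyte and macrophage markers were higher, with summed signals of 16.56 to 16.60 in Hdac3 deleted samples and 9.20 to 9.29 in wild type, and 8 of them had wild type means in the background range. All 13 measured neutrophil markers were higher as well, at 15.23 to 15.25 in Hdac3 deleted samples and 8.54 to 8.98 in wild type. Of 5 measured dendritic cell markers 3 were higher, Itgax and Batf3 among them, with summed signals of 10.99 to 11.09 in Hdac3 deleted samples and 7.12 to 7.22 in wild type, and the other two lay in background in both groups. The part of these other cells in the results below was not tested, and all 3 Hdac3 deleted samples carried their markers, so none could be left out on that account. In pooled RNA, fewer cells of a type and less RNA per cell cannot be told apart.

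Across the list, 23 members rose in Hdac3 deleted samples, 6 fell and 6 did not pass the test at limma adjusted p 0.05. Of all genes tested, 22.4% passed in the higher direction and 38.8% in the lower one. Atf3, Atf6, Sdf2l1 and Sel1l rose at least 2-fold, 4 of 35 members where 9.04% of all genes did so, and no member fell at least 2-fold, where 4.46% of all genes did. The 3 Hdac3 deleted values lay wholly above the 3 wild type values in 23 members (24.3% of all genes) and wholly below them in 6 (43.1% of all genes). The median difference, Hdac3 deleted minus wild type, was 0.38 (log2) over the members and -0.17 over all genes. With each sample centred on its median, 19 members were higher and 8 lower, where 17.8% of all genes were higher and 58.3% lower. With cyclic loess 27 members were higher and 4 lower, where 30% of all genes were higher and 23.5% lower. These scalings put the median of all genes at -0.33 and 0.0015. On the deposited scale 29 of 35 members lay above the all-gene median, a count that centring cannot change. It was 29 with cyclic loess and 28 after quantile normalization was applied again. By role, 13 of 15 chaperones rose, while the ATF4 arm and the translocation genes held both directions.

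**Figure D1:**
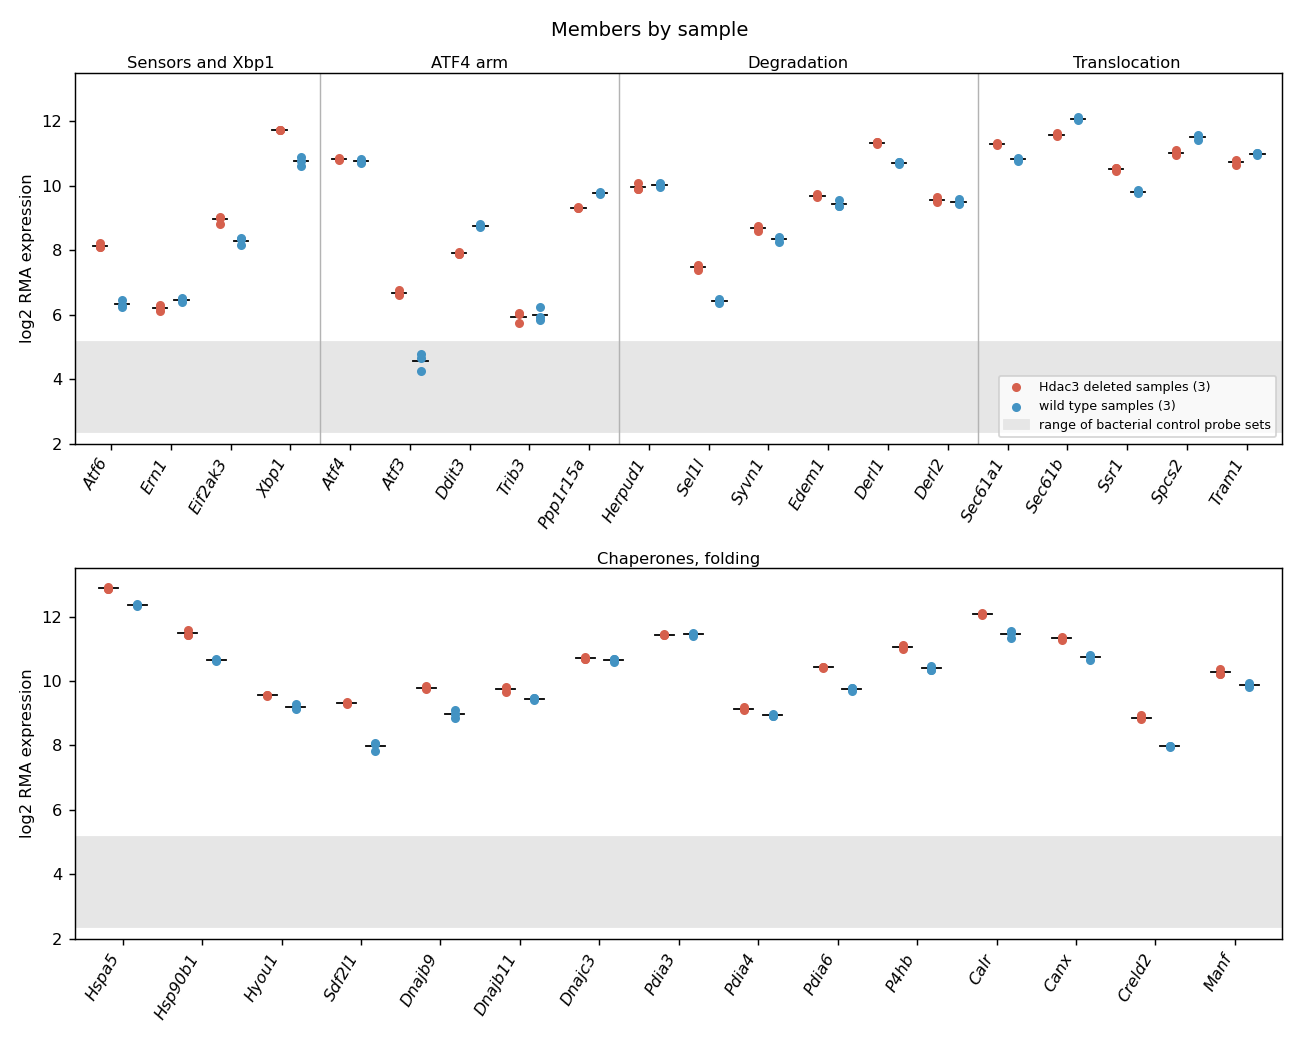
Log2 RMA expression of the 35 members in each sample, with 3 Hdac3 deleted samples (red) left of 3 wild type samples (blue) for each gene, group means as black lines and the range of the bacterial control probe sets in grey. In 29 genes the red and blue points do not overlap, and Atf3 in wild type is the one group inside the grey range.

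Of the sensor genes, Atf6 showed the largest difference. Atf6 measured 8.12, 8.22 and 8.11 in the Hdac3 deleted samples, against 6.47, 6.30 and 6.23 in wild type. All 3 deleted samples were well above all 3 wild type samples, a 3.52-fold rise (log2 difference 1.81, SE 0.078, adjusted p = 1.74e-06), and 4.96% of all genes had a larger difference. Xbp1, which encodes the transcription factor made after IRE1 splicing, stood at 11.73, 11.74 and 11.73 in Hdac3 deleted samples, against 10.60, 10.78 and 10.88 in wild type. It rose by 0.98 (SE 0.079, adjusted p = 4.04e-05), and its 3 further probe sets gave 1.06, 1.15 and 1.07. Splicing of Xbp1 was not measured. Eif2ak3, the PERK gene, read 9.01, 9.05 and 8.82 in Hdac3 deleted samples, against 8.15, 8.39 and 8.36 in wild type, a rise of 0.66 (SE 0.093, adjusted p = 0.000725). Its other probe sets lay in the background range in both groups, and one of them passed as lower (-0.38, adjusted p = 0.0354). With all of them averaged the difference of Eif2ak3 was 0.00098 (adjusted p = 0.992), so the rise rests on the brightest probe set. Ern1, the IRE1 gene, went the other way, with 6.30, 6.10 and 6.20 in Hdac3 deleted samples, against 6.49, 6.52 and 6.38 in wild type. The groups do not overlap, but the gap of -0.26 (SE 0.073, adjusted p = 0.0171) no longer passed without wild type replicate 2 (adjusted p = 0.0563), without Hdac3 deleted replicate 2 (adjusted p = 0.0511), with cyclic loess (adjusted p = 0.344) or with probe sets averaged (adjusted p = 0.23). The genes of the sensors ATF6 and PERK were higher and that of IRE1 was slightly lower. The median of all genes was -0.17, and 62.5% of all genes had a larger difference than Ern1. The median over the 4 genes was 0.82, and 0.53 with probe sets averaged.

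The ATF4 arm gave no common direction. Atf4 itself, the transcription factor translated when PERK is active, overlapped between groups at 10.85, 10.81 and 10.82 in Hdac3 deleted samples, against 10.83, 10.74 and 10.71 in wild type (difference 0.07, SE 0.056, adjusted p = 0.297). With cyclic loess Atf4 passed as higher, by 0.28 (adjusted p = 0.00559). ATF4 is controlled largely at translation, which an mRNA array does not read. Atf3, a stress-induced factor of the ATF/CREB family, measured 6.63, 6.77 and 6.61 in Hdac3 deleted samples, against 4.77, 4.24 and 4.65 in wild type. The wild type values lay inside the background range of 2.37 to 5.16, so the rise is given as at least 2.86-fold (adjusted p = 1.3e-05), measured from the top of that range. Ddit3, which encodes the pro-apoptotic factor CHOP, was at 7.89, 7.89 and 7.95 in Hdac3 deleted samples, against 8.82, 8.77 and 8.71 in wild type. It fell by 0.86 (SE 0.055, adjusted p = 1.32e-05), the lowest difference among the 35 members. Ppp1r15a, which encodes the GADD34 subunit that lets translation resume, read 9.31, 9.31 and 9.35 in Hdac3 deleted samples, against 9.79, 9.81 and 9.76 in wild type, and fell by 0.46 (SE 0.050, adjusted p = 0.000174). Trib3, a pseudokinase induced downstream of ATF4 and CHOP, overlapped, with 6.02, 5.73 and 6.06 in Hdac3 deleted samples, against 6.23, 5.84 and 5.93 in wild type (difference -0.06, SE 0.128, adjusted p = 0.685). Of the 5 genes, 1 rose, 2 fell and 2 did not pass, and their median of -0.06 had no settled sign, being 0.12 with cyclic loess and -0.22 with median centring.

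**Figure D2:**
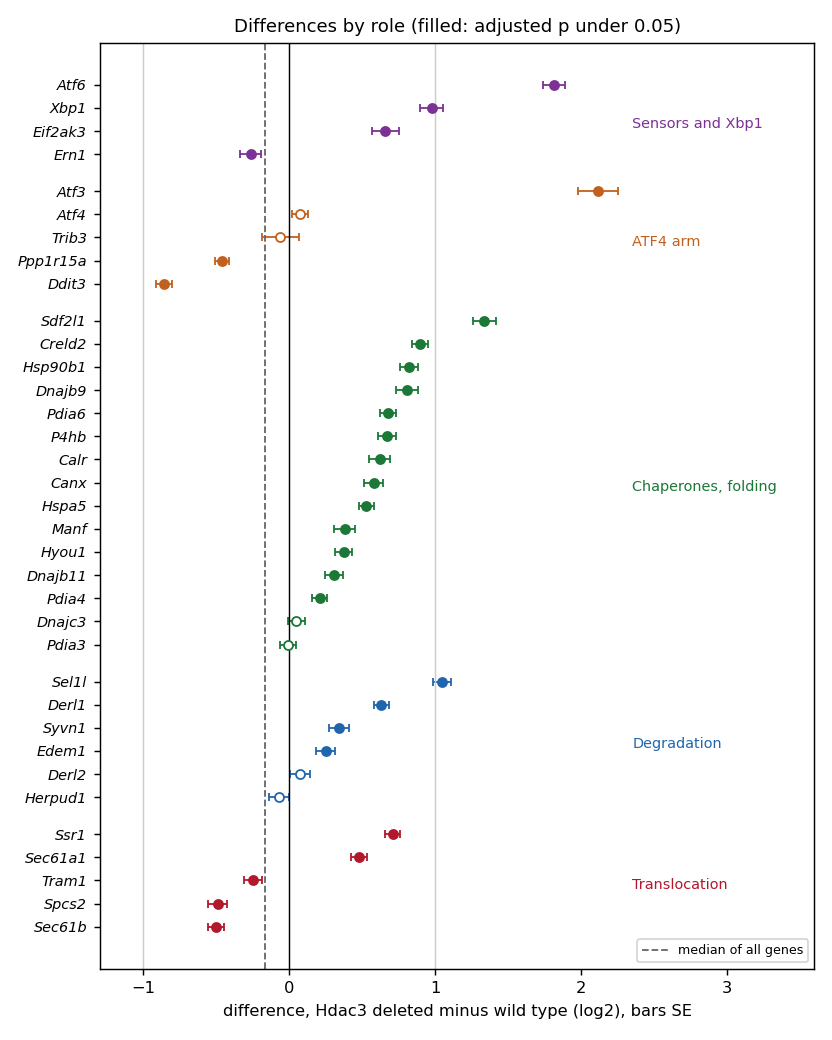
Difference of each member, Hdac3 deleted minus wild type, in log2 units with its standard error (n = 3 samples per group), grouped by role. Filled points passed adjusted p 0.05, grey lines mark 2-fold and the dashed line is the median of all genes at -0.17. Of the 15 chaperones and folding enzymes 13 are filled and right of 0, whereas the ATF4 arm runs over both sides.

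The chaperones and folding enzymes were mostly higher. On the deposited scale 13 of 15 genes rose, none fell and 2 did not pass, with a median of 0.58 and a range of -0.0099 to 1.34. With median centring 11 were higher and 1, Pdia3, was lower (-0.17, adjusted p = 0.0231). With cyclic loess all 15 were higher, Pdia3 by 0.21 (adjusted p = 0.011) and Dnajc3 by 0.26 (adjusted p = 0.0071). None of the 15 lay below the median of all genes. Among the HSP70 system, Hspa5 encodes BiP, the main ER chaperone, which also holds the sensors inactive. It stood at 12.86, 12.93 and 12.85 in Hdac3 deleted samples, against 12.35, 12.38 and 12.32 in wild type, a rise of 0.53 (SE 0.053, adjusted p = 0.000118). This is a 1.44-fold rise, and its second probe set rose by 0.33. Sdf2l1, which works with BiP and its J proteins, measured 9.32, 9.29 and 9.33 in Hdac3 deleted samples, against 8.09, 7.82 and 8.03 in wild type, the largest rise of the role at 2.53-fold (log2 difference 1.34, SE 0.078, adjusted p = 8.05e-06). Of the J proteins that guide BiP, Dnajb9 read 9.77, 9.84 and 9.75 in Hdac3 deleted samples, against 8.86, 8.99 and 9.09 in wild type, and rose by 0.81 (adjusted p = 7.88e-05). Dnajb11, the J protein ERdj3, rose by 0.31 (adjusted p = 0.00432) but by 0.15 with median centring, which did not pass (adjusted p = 0.0836). The nucleotide exchange factor gene Hyou1 rose by 0.37 (adjusted p = 0.0014). Dnajc3, which encodes the J protein p58IPK, overlapped at 10.67, 10.75 and 10.69 in Hdac3 deleted samples and 10.70, 10.69 and 10.59 in wild type (difference 0.05, adjusted p = 0.492). Its probe sets disagreed, since 3 others measured above background were lower by 0.44, 0.63 and 0.51 and passed the test, so no direction is given for Dnajc3.

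Hsp90b1, the gene of the HSP90 chaperone GRP94, measured 11.43, 11.57 and 11.43 in Hdac3 deleted samples, against 10.63, 10.69 and 10.65 in wild type. The rise of 0.82 (SE 0.060, adjusted p = 2.46e-05) was matched by 0.84 on its second probe set. The lectin chaperones of the glycoprotein folding cycle rose together, Calr (calreticulin) by 0.62 (adjusted p = 0.00026) and Canx (calnexin) by 0.58 (adjusted p = 0.000208). Calr stood at 12.12, 12.08 and 12.05 in Hdac3 deleted samples, against 11.50, 11.34 and 11.57 in wild type, and Canx at 11.32, 11.37 and 11.28 in Hdac3 deleted samples, against 10.65, 10.77 and 10.81 in wild type. Both genes had 2 further probe sets, all higher. The disulphide isomerases were graded rather than uniform: Pdia6 rose by 0.67 (adjusted p = 3.71e-05), P4hb by 0.67 (adjusted p = 9.19e-05) and Pdia4 by 0.21 (adjusted p = 0.0116). The call of Pdia4 was lost with median centring (adjusted p = 0.434) and with its probe sets averaged (adjusted p = 0.122). Pdia3, which partners calnexin and calreticulin, overlapped at 11.43, 11.46 and 11.43 in Hdac3 deleted samples and 11.39, 11.46 and 11.50 in wild type (difference -0.01, SE 0.054, adjusted p = 0.881). The small ER proteins Creld2 and Manf, both known as targets of the response, rose by 0.90 (SE 0.057, adjusted p = 1.17e-05) and 0.38 (SE 0.069, adjusted p = 0.00273). Creld2 read 8.81, 8.86 and 8.93 in Hdac3 deleted samples, against 7.99, 7.99 and 7.94 in wild type, and the groups do not overlap.

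Promoters of the members were searched for known elements of the response. RefSeq promoter windows (GRCm38.p6, 250 bases before to 50 after the start) were found for 29 of the 35 genes. The ER stress response element (ERSE), which binds NF-Y and ATF6, is CCAAT and CCACG with 9 bases between them, and it was searched on both strands. It was present in 8 of the 29 genes (27.6%), against 18 of the 9887 tested genes with a window (0.182%), and in 39 of all 32851 windows. The 8 were Calr, Canx, Creld2, Dnajc3, Hsp90b1, Hspa5, Pdia6 and Syvn1, of which 7 rose and Dnajc3 did not pass. Among chaperones with a window but no ERSE, Sdf2l1, Dnajb9, Dnajb11, Pdia4 and P4hb also rose and Pdia3 did not pass. The element is known from chaperone promoters of this kind, and the list was picked by function. Its high share among members therefore follows partly from the choice of list, and its part in their rise was not tested. Outside the list 10 tested genes carried the ERSE, of which 1 was higher and 4 were lower, where 22.4% of all genes were higher and 38.8% lower. The related element ERSE-II, added to the search after the values were seen, ATTGG and CCACG with 1 base between them, lies in the windows of Herpud1 and Dnajb11 and in those of 8 of the 9887 tested genes (0.0809%). The letters of the UPRE, TGACGTGG, and of the amino acid response element, TGATGNAAT, occurred in none of the 29 genes' windows and in 1.04% and 0.627% of tested genes, and windows in which the letters are absent say nothing about the factors. The sites before the start are shown on the strand of each gene, 5′ to 3′, with both ends of the element in capitals. A site on the opposite strand reads CGTGG first and ATTGG last.
Hspa5, chr2:34772005-34772063, plus strand: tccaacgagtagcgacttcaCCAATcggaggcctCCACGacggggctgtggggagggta
Hsp90b1 upstream site, chr10:86705618-86705676, minus strand: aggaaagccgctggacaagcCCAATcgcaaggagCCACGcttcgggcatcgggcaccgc
Hsp90b1 downstream site, chr10:86705513-86705571, minus strand: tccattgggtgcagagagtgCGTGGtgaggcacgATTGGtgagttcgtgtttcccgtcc
Calr, chr8:84847055-84847113, minus strand: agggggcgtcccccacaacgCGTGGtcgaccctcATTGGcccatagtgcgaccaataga
Canx, chr11:50325780-50325838, minus strand: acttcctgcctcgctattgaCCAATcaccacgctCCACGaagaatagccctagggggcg
Creld2, chr15:88819500-88819558, plus strand: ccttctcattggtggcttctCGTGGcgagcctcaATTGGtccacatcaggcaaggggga
Pdia6, chr12:17266471-17266529, plus strand: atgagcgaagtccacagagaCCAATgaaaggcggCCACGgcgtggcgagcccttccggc
Dnajc3, chr14:118937807-118937865, plus strand: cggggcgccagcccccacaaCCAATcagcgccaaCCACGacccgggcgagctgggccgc
Syvn1, chr19:6046512-6046570, plus strand: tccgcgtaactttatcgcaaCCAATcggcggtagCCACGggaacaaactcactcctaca
Herpud1 (ERSE-II), chr8:94386357-94386407, plus strand: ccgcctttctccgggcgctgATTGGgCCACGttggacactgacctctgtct

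**Figure D3:**
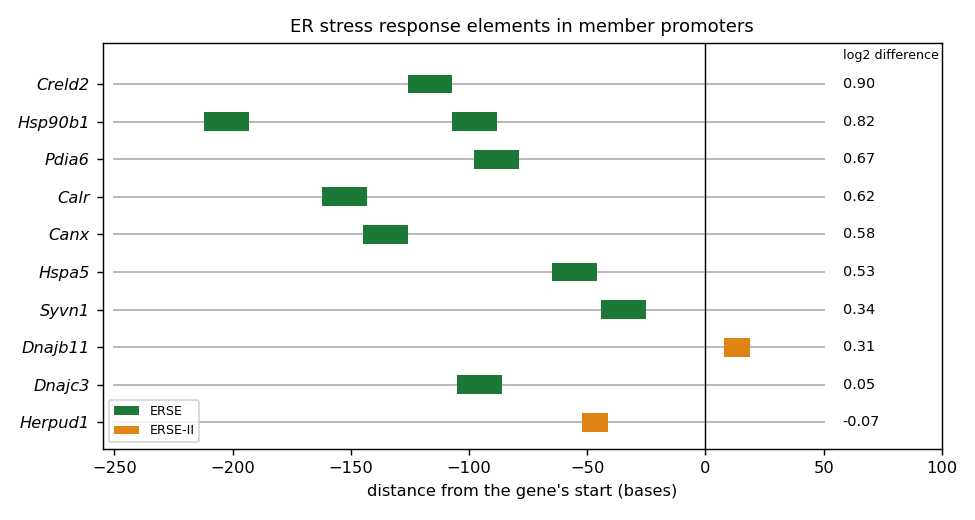
Positions of the ERSE (green) and ERSE-II (orange) in the promoter windows of the 10 members that hold one, in bases from the gene's start, ordered by the log2 difference of Hdac3 deleted minus wild type given at the right. The ERSE sites lie between positions -212 and -26, Hsp90b1 holds 2 of them, and the 2 genes at the bottom, Dnajc3 and Herpud1, did not pass the test.

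In the ATF4 arm the letters TGACGT, the core of a cyclic AMP response element bound by factors of the ATF/CREB family, lie close to the start of Atf3 and of Ppp1r15a. They occurred in 5 of the 29 members with a window (17.2%) and in 11.5% of tested genes. Of the 5 members 4 rose (Atf3, Canx, Dnajb11 and Hspa5) and Ppp1r15a fell. Among the tested genes with these letters 25% were higher and 40% lower. Atf3 and Ppp1r15a are shown because one rose and the other fell, with the site in capitals as read on the gene's own strand. In both the site shown reads ACGTCA there, so its TGACGT lies on the opposite strand. In Ppp1r15a it overlaps another core, at positions -12 to -7, that reads TGACGT on the gene's own strand.
Atf3, chr1:191183334-191183361, minus strand: tggaagctattaatagcattACGTCAgc
Ppp1r15a, chr7:45526269-45526298, minus strand: gagaccccgcctctccggtgACGTCAgcac

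Degradation genes rose in 4 of 6 cases and fell in none on the deposited scale, with a median of 0.29, while median centring left 2 higher and 1, Herpud1, lower (-0.23, adjusted p = 0.015). Sel1l, the scaffold of the ubiquitin ligase that clears misfolded ER proteins, measured 7.54, 7.39 and 7.49 in Hdac3 deleted samples, against 6.38, 6.42 and 6.48 in wild type. It rose 2.07-fold (log2 difference 1.05, SE 0.062, adjusted p = 8.41e-06), and another probe set gave 0.38. A further one gave 0.82 with wild type in the background range, and one with Hdac3 deleted in that range did not pass (-0.17). Syvn1, the ligase HRD1 that SEL1L holds, rose by less, with 8.71, 8.60 and 8.75 in Hdac3 deleted samples, against 8.41, 8.26 and 8.37 in wild type (difference 0.34, SE 0.068, adjusted p = 0.00412). With median centring its 0.18 did not pass (adjusted p = 0.0563). Derl1, a membrane component of the export channel, was at 11.30, 11.35 and 11.37 in Hdac3 deleted samples, against 10.72, 10.73 and 10.66 in wild type, a rise of 0.63 (SE 0.053, adjusted p = 5.02e-05), which a second probe set shared (0.62) while 2 others did not pass (0.18 and 0.15). Without probe sets marked as shared between transcripts (_s_at and _x_at), the one left brightest was that at 0.18 (adjusted p = 0.0689). Its relative Derl2 overlapped, with a difference of 0.07 (SE 0.072, adjusted p = 0.401), but passed as higher with cyclic loess (0.27, adjusted p = 0.0106). Edem1, a mannosidase-like protein that marks glycoproteins for disposal, has no settled direction. Its brighter probe set rose by 0.25 (SE 0.067, adjusted p = 0.0158) and the other fell by 0.24 (adjusted p = 0.0113), and the rise did not pass without wild type replicate 2 (adjusted p = 0.0527), without Hdac3 deleted replicate 1 (adjusted p = 0.058) or with median centring (adjusted p = 0.253). Herpud1, an ER membrane protein of this machinery and a well known target of the response, overlapped at 9.91, 10.08 and 9.92 in Hdac3 deleted samples and 9.97, 10.05 and 10.10 in wild type (difference -0.07, SE 0.070, adjusted p = 0.402), and so did its second probe set (difference 0.01).

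The translocation genes, which bring new proteins into the ER, split by gene. Sec61a1, the pore of the translocon, stood at 11.26, 11.34 and 11.28 in Hdac3 deleted samples, against 10.85, 10.83 and 10.77 in wild type, and rose by 0.48 (SE 0.054, adjusted p = 0.000226). Its small partner Sec61b was lower, at 11.55, 11.63 and 11.57 in Hdac3 deleted samples, against 12.06, 12.07 and 12.12 in wild type, and fell by 0.50 (SE 0.053, adjusted p = 0.000161). These subunits of one complex moved in opposite directions, and in neither gene do the groups overlap. Of the further Sec61a1 probe sets, those at 0.44 and 0.25 passed as higher and those at 0.29, 0.09 and -0.0058 did not pass. Ssr1, a subunit of the translocon-associated protein complex, read 10.55, 10.55 and 10.47 in Hdac3 deleted samples, against 9.79, 9.80 and 9.86 in wild type, and rose by 0.71 (SE 0.055, adjusted p = 3.2e-05). Spcs2, a subunit of the signal peptidase, read 10.96, 11.10 and 11.01 in Hdac3 deleted samples, against 11.44, 11.54 and 11.57 in wild type, and fell by 0.49 (SE 0.065, adjusted p = 0.000501), while a second probe set fell by 0.73. Tram1, a membrane protein beside the translocon, fell by 0.25 (SE 0.062, adjusted p = 0.0106), where the median of all genes was -0.17, and gave -0.037 with cyclic loess (adjusted p = 0.633).

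Other genes of the pathway were read in lists that hold no member, with counts on the deposited scale. They stand against an array that itself leaned lower, with 22.4% passing as higher, 38.8% as lower and a median of -0.17. Of 23 further ER folding genes 14 rose and 2 fell, with a median of 0.39. Erp29, a folding factor, rose by 1.15 and Mcfd2, part of a cargo receptor, by 1.35, while the canopy protein gene Cnpy2 and the proline isomerase gene Ppib fell by 0.81 and 0.60. Of 17 further degradation genes 9 rose and 4 fell, with a median of 0.28. Erlin1 rose by 1.51 and Selenos by 0.62, whereas Ube2j1, a ubiquitin-conjugating enzyme of the ER, and the glycanase gene Ngly1 fell by 0.83 and 0.80. Of 16 N-glycosylation genes 6 rose and 4 fell, among them Dpagt1 and Rpn1, up by 0.89 and 0.74, and Ostc and Dad1, which fell by 0.72 and 0.31. Of 15 further translocation genes 4 rose and 8 fell, with a median of -0.27. Ssr3 and Srpr, the receptor of the signal recognition particle, rose by 0.54 and 0.34, and Srp14 and Sec11a fell by 0.78 and 0.59. COPII genes, which form vesicles leaving the ER, rose in 1 and fell in 5 of 10 cases, with differences of 1.31 for Sec24d, -0.58 for Sec13 and -0.30 for Sar1b. Some of these splits moved with the scaling, as did the shares of all genes. With cyclic loess 3 COPII genes were higher and 1 lower, and 7 further translocation genes higher and 6 lower. That scaling gave 30% of all genes higher and 23.5% lower. With median centring 6 N-glycosylation genes were higher and 7 lower, where 17.8% of all genes were higher and 58.3% lower.

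**Figure D4:**
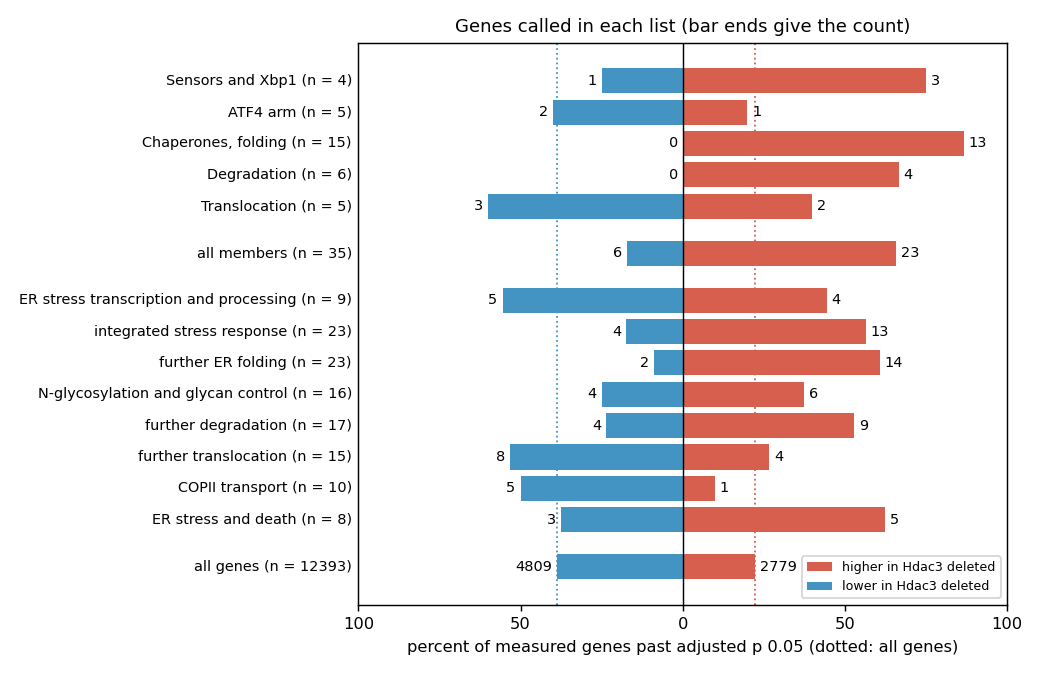
Percent of measured genes in each list that passed adjusted p 0.05, higher in Hdac3 deleted samples to the right (red) and lower to the left (blue), with the count at each bar's end and dotted lines at the share of all genes (22.4% and 38.8%). The chaperone bar reaches 13 of 15 on the higher side with 0 on the lower side, and the further translocation and COPII bars lean to the lower side.

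Regulators and outputs of the response held both directions, where 22.4% of all genes were higher and 38.8% lower. Of 9 transcription and processing genes 4 rose and 5 fell. The ATF6-related factors Creb3l2 and Creb3 rose by 0.84 and 0.36. Nfyb, a subunit of the NF-Y factor that binds the ERSE, fell by 0.66 and Yy1 fell by 0.44. The integrated stress response list holds kinase genes of the Eif2ak family and Ppp1r15b beside genes downstream of ATF4. It rose in 13 and fell in 4 of 23 cases, with a median of 0.22. Of the 4 that fell, 3 were above background and the other lay in the background range in both groups. Cebpb, a transcription factor also abundant in myeloid cells, rose by 2.97, and Nupr1 was at least 7.58-fold higher with wild type in the background range. Mthfd2 and Phgdh, enzymes of one-carbon and serine metabolism, fell by 0.65 and 0.49. Of 8 genes of ER stress and death 5 rose and 3 fell. Casp12, a caspase tied to the ER in mouse, was at least 2.13-fold higher with wild type in the background range, and Tmbim6, a protective ER protein, rose by 0.87. Bbc3, which encodes the pro-apoptotic PUMA, fell by 0.76 and Traf2 by 0.26, whereas Bak1 and Bcl2l11 of the same list rose by 0.81 and 0.49.

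Plasma cells carry high levels of this gene set, so their markers are given beside it. Of 8 measured plasma cell markers 4 were higher and 1 lower, with summed signals of 10.53 to 10.57 (log2) in Hdac3 deleted samples and 10.07 to 10.11 in wild type. Txndc5 and Fkbp11 stand in both this list and the further folding list, and Derl3 stands in both this list and the further degradation list. Of these shared genes Txndc5 was among the 4 higher markers, by 0.55, and Fkbp11 and Derl3 did not pass. Tnfrsf17 lay in the background range in both groups, at 3.54 in Hdac3 deleted samples and 3.64 in wild type. Irf4 was lower, at 7.51 in Hdac3 deleted samples and 8.83 in wild type. Jchain stood at 8.92 in Hdac3 deleted samples and 6.42 in wild type, Prdm1 at 8.27 in Hdac3 deleted samples and 7.37 in wild type, and Sdc1 at 6.10 in Hdac3 deleted samples and 5.51 in wild type. Of 7 B cell markers 2 were higher and 1 lower, and 5, among them Ms4a1 and Pax5, lay in the background range in both groups. Of those called, Cd79b alone, which was higher, lay above background. Summed macrophage signal differed by far more than either. The part of plasma cells, B cells or macrophages in the rise of the chaperones was not tested.

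How far the values depend on scaling was read gene by gene. Relative to the 4 CD3 genes all 35 members were higher, as were 97.7% of all genes, whose median there was 1.30. Under median centring and cyclic loess the members that changed sign were Atf4, Dnajc3, Derl2, Pdia3, Trib3 and Herpud1, the 6 that did not pass on the deposited scale. The 6 members that fell, Ern1, Ddit3, Ppp1r15a, Sec61b, Spcs2 and Tram1, were lower under both of these scalings, Ern1 and Tram1 without passing with cyclic loess, but higher relative to the CD3 genes.

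**Figure D5:**
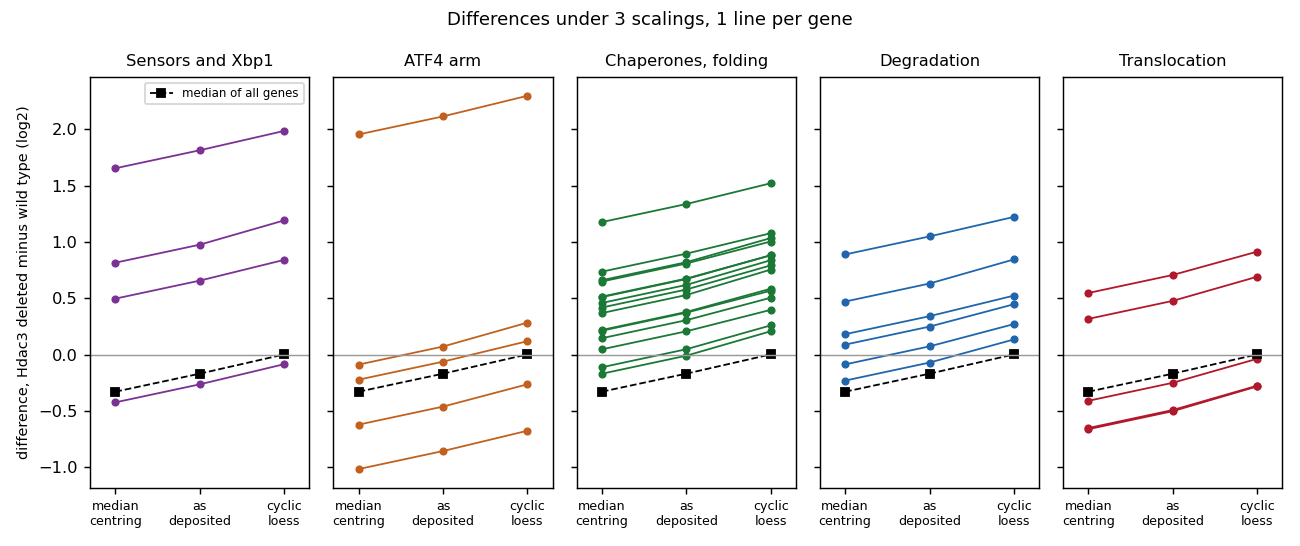
Difference of each member, Hdac3 deleted minus wild type (log2), under median centring, as deposited and with cyclic loess, 1 line per gene in 5 panels by role, with the median of all genes as black squares at -0.33, -0.17 and 0.0015. The lines run parallel to the squares, and all 15 chaperone lines lie above them.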

How the data were processed

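The authors' values are log2 expression per probe set, normalised over the arrays by robust multiarray average (RMA) in MAYDAY 2.12, per the series' design text and the labels. The deposited table held 22690 probe sets, of which 64 controls were left out. Of the other 22626, 20380 had 1 gene symbol, 691 several and 1555 none, and 20351 matched RefSeq by Entrez identifier without a change of symbol. The 27 Bacillus subtilis control probe sets spanned 2.37 to 5.16, taken as background, and a fold against a group inside it is "at least", from its top.

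Titles gave the groups. The two-sided test was that of limma 3.58.1 under R 4.3.3, through lmFit and eBayes. Its p-values were adjusted over 12393 genes by Benjamini and Hochberg's method, in place of the authors' Student's test. A call is adjusted p under 0.05. Probe sets other than a gene's brightest were adjusted over all 22626. Members and lists were chosen with earlier results of these data known, so lists are described by counts and not tested. Every member is named, with the 2 smallest p-values in each direction from each further list. Bak1 and Bcl2l11 are named besides. On simulated data of 12393 genes, changes of 0.5, 1, 2 and 4 log2 were recovered in 52%, 94%, 100% and 100% of cases. There were 12 false calls among 12193 unchanged genes. Far more genes were called in the real data (22.4% higher and 38.8% lower), so these shares do not give the recovery of the real comparison. A planned search of protein ends was not run, and proteins were not analysed here. Alternatives covered scaling, probe-set choice, filters, the prior, weights, the block and each sample left out. Plots used Python 3.11.15 with matplotlib 3.10.9. The number of arrays limits the precision.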

Additional observations from a re-analysis of the deposited data

How the results depend on the processing

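Each value was recomputed under 17 alternatives (and the fold counts at 1.5-fold). Of 35 members 17 kept their direction and call in all of them, and 31 kept both without any 1 sample. The counts of 23 higher and 6 lower were 22 to 23 and 5 to 6 without 1 sample, and 35 and 0 relative to the CD3 genes. At 2-fold, the 4 higher members were 4 to 5 without 1 sample, 8 with cyclic loess (10.8% of all genes), 32 relative to the CD3 genes (80.7% of all genes) and 14 at 1.5-fold (13.6% of all genes), and the 0 lower members (6 at adjusted p alone) were 0 without any 1 sample, 1 with median centring (7% of all genes) and 1 at 1.5-fold (13.7% of all genes), Ddit3 in both.

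Role medians moved with the scale. Under median centring, cyclic loess and relative to the CD3 genes they were 0.66, 1.02 and 2.28 for sensors, -0.22, 0.12 and 1.40 for the ATF4 arm, 0.42, 0.79 and 2.05 for chaperones, 0.13, 0.49 and 1.76 for degradation genes, and -0.41, -0.037 and 1.22 for translocation genes. Averaging a gene's probe sets gave 0.53 for sensors, 0.43 for chaperones and 0.22 for degradation genes, the last 0.21 without _x_at and _s_at probe sets. The ATF4 arm was -0.21 with quantile normalization again and 0.026 with array weights. Without 1 sample the medians spanned 0.74 to 0.86 for sensors, -0.14 to 0.051 for the ATF4 arm, 0.53 to 0.61 for chaperones, 0.26 to 0.33 for degradation genes and -0.28 to -0.20 for translocation genes.

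Signs turned for members relative to the CD3 genes (Ern1 1.20, Ddit3 0.61, Trib3 1.40, Ppp1r15a 1.01, Pdia3 1.46, Herpud1 1.40, Sec61b 0.96, Spcs2 0.97 and Tram1 1.22), with median centring (Atf4 -0.089, Dnajc3 -0.11, Derl2 -0.087) and with cyclic loess (Trib3 0.12, Pdia3 0.21, Herpud1 0.13). Dnajc3 was -0.40 with averaged probe sets, Trib3 0.026 with array weights, 0.051 without wild type replicate 1 and 0.039 without Hdac3 deleted replicate 2, and Pdia3 0.014 without wild type replicate 3 (-0.041 to 0.014 over the samples left out). Causes were not tested. With the replicate number as a block 23 members were higher and 6 lower, as in the fit without the block, and no call of a member changed. Same-numbered samples' deviations from their group means correlated at 0.089, 0.065 and -0.201. With 3 samples per group these values cannot settle whether the numbers pair the samples.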
